A study of Homo sapiens with 4 samples.

Results

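The 5 genes described here, RN7SK, RN7SL1, RN7SL2, RMRP and RPPH1, encode 4 kinds of structured non-coding RNA (7SK, 7SL, the RNase MRP RNA and the RNase P RNA) that work as the core of RNA-protein particles. Their members in the data were the Argonaute regions that overlapped each gene by at least 1 nt on its own strand of the human genome build hg19. There were 8 such regions among the 211947 of the deposited list, and they lay on 4 of the 5 genes.

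The series held 4 PAR-CLIP libraries from HEK293, an established human embryonic kidney cell line. PAR-CLIP labels RNA in living cells with a photoreactive nucleoside, crosslinks it to protein by ultraviolet light and sequences the RNA that is recovered with a chosen protein. In 3 libraries AGO1, expressed with a His/FLAG/HA tag, was recovered with a FLAG antibody after 200 µM 4-thiouridine. In 1 library AGO2 was recovered with an antibody to AGO2 itself (11A9) after 100 µM 4-thiouridine, and that library's labels name no tag, whereas the series' design text gives tagged lines for AGO1 or AGO2. The labelling time was 16 h and the ultraviolet wavelength 365 nm in all 4 libraries. The list gives 1 score per region over pooled libraries, and which of the libraries were pooled is not stated. This leaves no comparison of AGO1 with AGO2, no replicate error or test for any value, and no known read depth.

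Argonaute proteins hold microRNAs and other small RNAs and are guided by them to target RNAs, mostly messenger RNAs in the cytoplasm. The RNAs described here are not messenger RNAs: RNA polymerase III makes them as short transcripts that fold extensively and are found in the cell in large amounts. RNase P, with the RPPH1 RNA, trims the 5′ leader from transfer RNA precursors, and the related RNase MRP, with the RMRP RNA, takes part in ribosomal RNA processing and shares most of its proteins with RNase P. 7SK holds the transcription elongation factor P-TEFb in an inactive state in the nucleus, and 7SL is the scaffold of the signal recognition particle, which brings ribosomes that make secreted proteins to the endoplasmic reticulum.

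The RNase P and RNase MRP RNAs were covered nearly or fully from end to end and had the highest summed scores among these RNAs. 7SK and 7SL had lower summed scores, with regions only in their 3′ parts. Over each gene, the summed score was 212 for RPPH1, 115 for RMRP, 18 for RN7SK, 5 for RN7SL2 and 0 for RN7SL1. RPPH1 thus had 1.84 times the summed score of RMRP and 11.8 times that of RN7SK, and RMRP had 6.39 times that of RN7SK. No replicate spread exists against which these ratios could be judged. How reads that fit several places in the genome were treated is not stated in what was used here. The effect of such reads on the summed scores, that of RN7SK included, was not tested. Neither the amount of each RNA in the cells nor its number of 4-thiouridine sites was measured here, so more of an RNA and more Argonaute on each copy of it cannot be told apart.

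**Figure D1:**
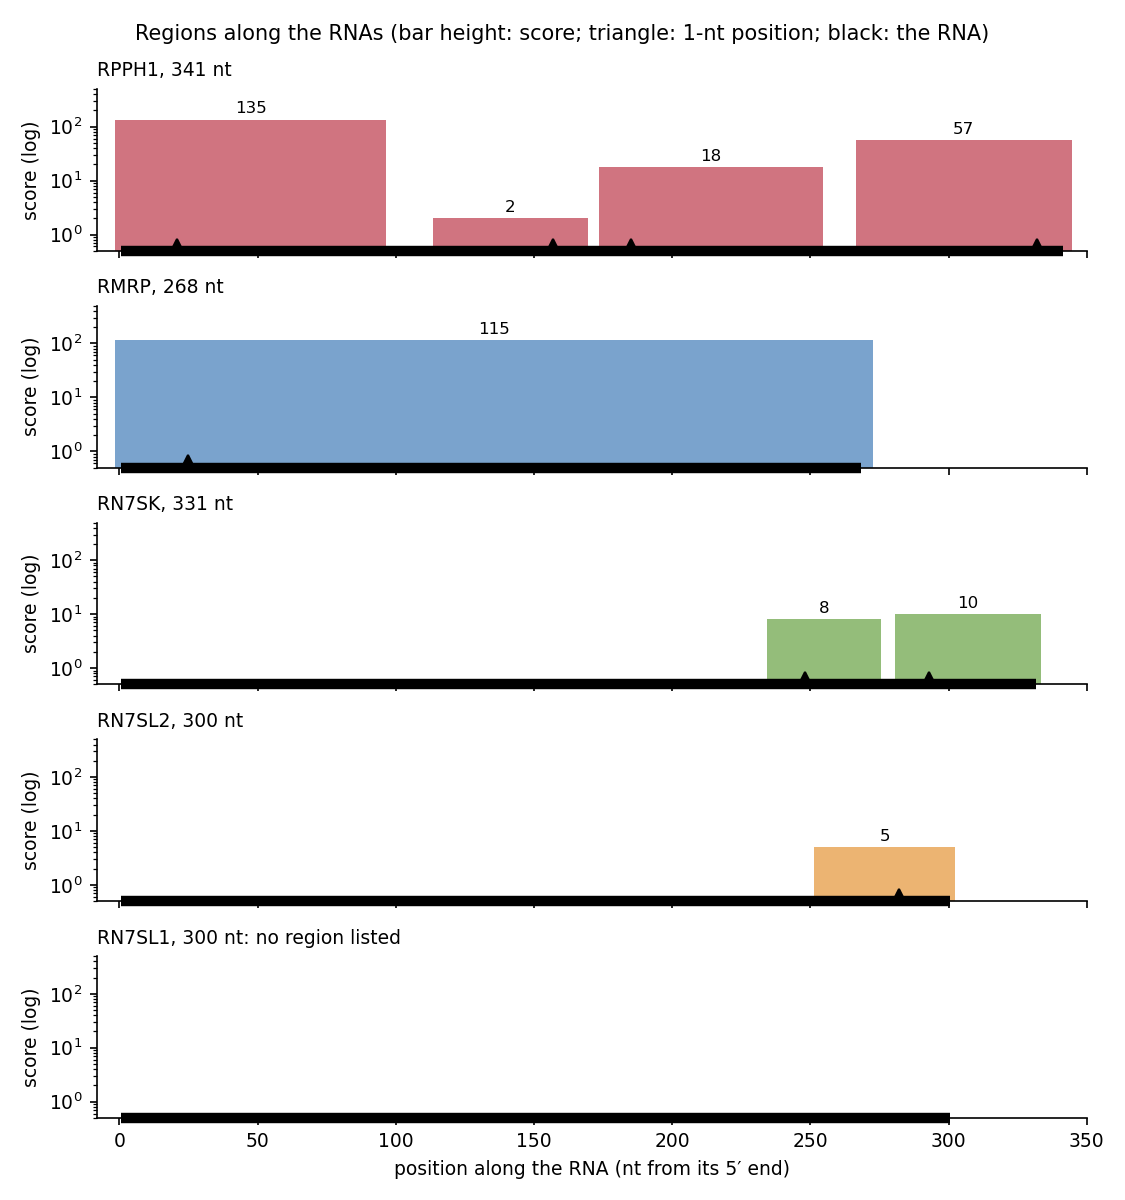
Regions along the 5 RNAs, with the position in nt from the 5′ end of each RNA on the horizontal axis and the score of the region on a logarithmic vertical axis. Bars are regions with their scores printed above, triangles mark the 1-nt position deposited with each region, and the black line is the RNA; RPPH1 and RMRP are covered along 90.3% and 100% of their length, RN7SK and RN7SL2 toward the 3′ end, and RN7SL1 has no region.

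RPPH1, the RNA of RNase P, lies on chromosome 14 from 20811230 to 20811570 on the minus strand and is 341 nt long. It had 4 regions, which covered 308 nt, or 90.3% of the RNA. The region at the 5′ end, 98 nt wide (20811475 to 20811572), had a score of 135. It began 2 nt before the annotated 5′ end and ran to position 96, counted from 1 at the 5′ end of the RNA. The next region, from position 114 to 169 (20811402 to 20811457), had a score of 2. It was followed from position 174 to 254 (20811317 to 20811397) by a region with a score of 18. The region at the 3′ end began at position 267 (20811227 to 20811304), had a score of 57 and reached 3 nt past the annotated 3′ end. The scores were thus higher at both ends of the RNA than in its interior, and the 33 nt left uncovered lay in gaps of 17, 4 and 12 nt between the regions.

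RMRP, the RNA of RNase MRP, lies on chromosome 9 from 35657748 to 35658015 on the minus strand and is 268 nt long. A single region of 274 nt (35657744 to 35658017) with a score of 115 covered all of it. That region began 2 nt before the annotated 5′ end and ended 4 nt past the annotated 3′ end, so its edges lay within 4 nt of those of the gene. The whole RNA has 1 score, and how the underlying reads were spread along it is not given by the list. The 1-nt position that the authors deposited for each region, whose meaning is not stated, lay at position 25 of RMRP. In the 5′ region of RPPH1, the highest-scoring of that RNA, it lay at position 21. That region ended at position 96, so any position inside it lies toward the 5′ end. In the other 3 regions of RPPH1 the 1-nt position lay at 157, 185 and 332.

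RN7SK, the 7SK RNA, lies on chromosome 6 from 52860418 to 52860748 on the plus strand and is 331 nt long. Its 2 regions lay next to each other, 5 nt apart, in the 3′ part of the RNA. The first spanned positions 235 to 275 (52860652 to 52860692) with a score of 8. The second ran from position 281 to 2 nt past the annotated 3′ end (52860698 to 52860750) with a score of 10. Together they covered 92 nt, or 27.8% of the RNA. Within the last 111 nt this was 82.9%, and no region lay on the first 234 nt. Whether reads from those 234 nt were lost in mapping was not tested. The 5′ hairpin of 7SK is known as the place where HEXIM proteins bind, and its 3′ end as the place where LARP7 binds. The 1-nt positions were 248 and 293.

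7SL is made from near-identical gene copies, of which RN7SL1 and RN7SL2 were looked up here. RN7SL2, on chromosome 14 from 50329268 to 50329567 on the minus strand, had 1 region of 51 nt (50329266 to 50329316) with a score of 5. It ran from position 252 of 300 to 2 nt past the annotated 3′ end and covered 49 nt, or 16.3% of the RNA, with its 1-nt position at 282. This end of 7SL belongs to the Alu domain, the part of the particle that pauses translation. RN7SL1, on chromosome 14 from 50053297 to 50053596 on the plus strand, had no region at any score. A read from a stretch that both copies share fits either copy, and how the authors treated such reads is not stated in what was used here. The score of 5 against none is therefore uncertain as a difference between the copies, and the sum over both, 5, may leave out reads of 7SL.

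All 4 RNAs with a region had a region that passed the annotated 3′ end, by 3 nt in RPPH1, 4 nt in RMRP and 2 nt each in RN7SK and RN7SL2. RPPH1 and RMRP also had a region that passed the annotated 5′ end, each by 2 nt. RNA polymerase III ends its transcripts within a run of uridines, but no sequence was read here. Whether this bears on the edges of the regions was not tested. The RefSeq lengths for GRCh38.p14 are 341 nt for RPPH1, 270 nt for RMRP, 332 nt for RN7SK and 299 nt for each of RN7SL1 and RN7SL2, against 341, 268, 331 and 300 nt for the loci used here.

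Set against the whole list, the regions on these RNAs ranged from common to rare scores. Of the 8 regions, 2 had a score of at least 100, the 5′ region of RPPH1 and that of RMRP, where the background over all regions was 0.264%. That is 25% of the 8 regions (Wilson 95% interval 7.15 to 59.1, counting error only), against 0.263% of the 211939 other regions (0.242 to 0.286). The 3′ region of RPPH1 brought the number to 3 of 8 at a score of at least 50, where the background was 0.945%. At a score of at least 10 it was 5 of 8, with a background of 11.0%, and the 2 regions added were those of RPPH1 with a score of 18 and of RN7SK with a score of 10. The median score was 14.0 over the 8 regions (range 2 to 135) and 3.0 over the other regions (range 1 to 1000). Neighbouring regions of 1 RNA share their source and are not replicates, so these shares describe 4 RNAs.

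**Figure D2:**
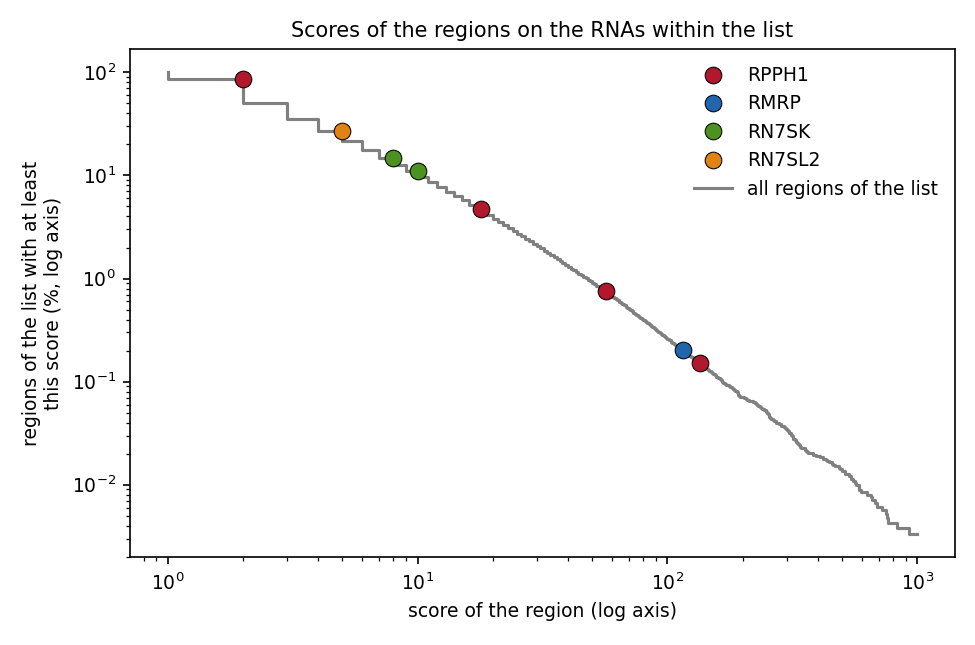
The percent of all 211947 regions that have at least a given score (vertical axis, logarithmic) against that score (horizontal axis, logarithmic), as a grey line, with the 8 regions on the RNAs as coloured points. The RPPH1 points spread from a score of 2, reached by 85.9% of the list, to 135, reached by 0.151%.

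The single scores make the range plain. The 5′ region of RPPH1 (135) ranked 315th by score in the list, where 0.151% of regions scored as high, and the RMRP region (115) ranked 423rd, with 0.203%. The 3′ region of RPPH1 (57) was matched by 0.755% of the list and the region with a score of 18 by 4.77%. The RN7SK regions, with scores of 10 and 8, were matched by 11.0% and 14.8%, and the RN7SL2 region by 27.0%. The region of RPPH1 with a score of 2 was matched by 85.9%.

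The regions on these RNAs were also wide, and in this list width and score go together. All 8 were wider than the median of the other regions, 32 nt (interquartile range 25 to 43). Their own median was 67 nt, with a range of 41 to 274. A rule by overlap favours wide regions to some degree, and the 1-nt position of all 8 lay inside its gene. The RMRP region was among the 89 widest of the list, as 0.0420% of regions reached its 274 nt. Set against the 58 other regions of 250 to 300 nt, its score of 115 was not unusual, since their median score was 82.5 (interquartile range 55.2 to 127.5) and 29.3% of them scored as high. The regions of RPPH1 were mixed in this respect. Against the 6534 other regions of 75 to 100 nt, whose median score was 11, its 5′ region with a score of 135 was matched by 0.888%, its 3′ region with 57 by 4.41% and its region with 18 by 28.1%. Among the 45181 other regions of 40 to 60 nt, with a median score of 4, the 2 regions of RN7SK with scores of 10 and 8 were matched by 14.3% and 20.1% and that of RN7SL2 by 38.8%. The region of RPPH1 with a score of 2, in the same range of widths, was matched by 91.9%.

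**Figure D3:**
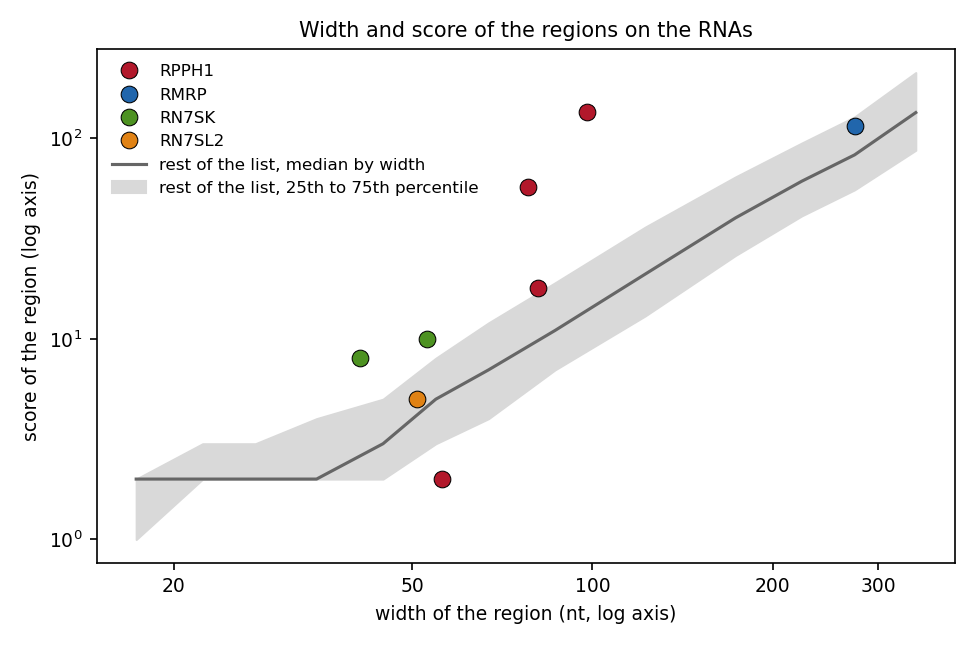
Score (vertical axis, logarithmic) against width in nt (horizontal axis, logarithmic) for the 8 regions on the RNAs, as coloured points, with the median and the 25th to 75th percentile of the rest of the list by width. The RMRP point lies inside the grey band of equally wide regions, whereas the RPPH1 points with scores of 135 and 57 lie above it. The RN7SK scores of 10 and 8 were also above the 75th percentile of other regions of 40 to 60 nt, which was 6.

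The density of score along a region was also highest at the 5′ end of RPPH1 among the 8. Per 100 nt of region, the 5′ region of RPPH1 had a score of 138 and its 3′ region 73.1, against 42.0 for the RMRP region, 19.5 and 18.9 for the RN7SK regions and 9.80 for the RN7SL2 region. The interior regions of RPPH1 had 22.2 and 3.57. The median over the other regions of the list, whatever their width, was 8.33, so the RN7SL2 region was close to it and 1 region of RPPH1 lay below it. Pooled over all their nucleotides, the other regions had a score of 14.5 per 100 nt, which is above both. Densities were not compared at like width. All 8 regions together carried a score of 350, or 0.0302% of the summed score of the list.

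Summed over stretches of similar length, the scores of RPPH1 and RMRP were reached by few stretches of the list and that of RN7SL2 by many. The genome was divided into fixed 300-nt tiles of 1 strand, and 144811 tiles outside these regions held the 1-nt position of at least 1 region, with a median summed score of 3. A summed score of at least 212, that of RPPH1, was found in 171 of these tiles (0.118%). At least 115, as for RMRP, was found in 596 tiles (0.412%), at least 18, as for RN7SK, in 9.72%, and at least 5, as for RN7SL2, in 38.3%. The fixed grid cuts some groups of regions apart, whereas the genes were taken whole. The tiles were not matched for the width of their regions. Against other regions of like width the score of RMRP was not unusual, as 29.3% of them scored as high.

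Few regions were listed in the immediate surroundings of the genes. No region lay on the opposite strand within any of the 5 genes. Within 1000 nt on each side of the genes, the same strand held 1 further region, upstream of RMRP at 35658881 to 35658906 and with a score of 1, against 115 in RMRP itself. For RPPH1 the nearest other region of the same strand was 13820 nt away, for RN7SL1 12262 nt, for RN7SL2 28883 nt and for RN7SK 69520 nt. On the opposite strand, 2 regions with a score of 2 each lay within 1000 nt upstream of RN7SL1, between 50052786 and 50053101. Out to 10000 nt on each side, 21 opposite-strand regions lay downstream of RN7SK between 52866147 and 52869855, with a median score of 2 and a highest of 23. Upstream of RMRP the same strand held 9 regions up to 35664419, with a highest score of 16. These include the region with a score of 1 named above. Around RN7SL1, 8 opposite-strand regions lay within that distance, with a median score of 2.5 and a highest of 84, and 3 lay upstream of RPPH1 with a highest score of 2. The genes of those neighbouring regions were not analysed here.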

How the data were processed

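Per the file headers, the deposited list holds Argonaute regions on hg19 from a library set called AGO_good, after a filter named with the value 0.05. BWA 0.5.8c was used, per the submitters' processing notes. Not given in the sources used here are the region caller, the filter's meaning and which libraries were pooled. Each region has a score, deposited by the authors as a whole number from 1 to 1000, of unstated meaning. At 1000 stood 7 regions, none of them on these RNAs, and 925 was the next value. Starts, ends and 1-nt positions are genomic coordinates (other values) as deposited by the authors, printed counting from 1.

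From these, overlaps, positions along each RNA, covered nucleotides, summed scores and shares of the list were computed in Python 3.11.15 (pandas 2.3.3, numpy 2.4.6, scipy 1.17.1), with figures by matplotlib 3.10.9. On 200 simulated loci, overlaps, positions and coverage all came back as simulated. Intervals are Wilson 95%. The members, gene edges and lists were chosen with earlier results of these data known. All members were named, and other loci by position. No RNA sequence was read, and a planned look at the protein partners of these RNAs was not run, since both need hg19 sequence or annotation, which was not used here. All 5 symbols matched RefSeq, from which names and lengths were taken.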

Additional observations from a re-analysis of the deposited data

How the results depend on the processing

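Of 21 planned changes of overlap, score, edge, position, flank, tile or RNAs included, those that were run gave 87 values for 37 results. A share was taken as unchanged within its Wilson 95% interval, and a count, median or summed score within 1.5 times. For covered shares and positions that interval counts nucleotides, and those of the same region are not independent. By these measures 67 values stayed and 20 moved, several by the construction of the alternative. The high-score share on these RNAs, 25% (interval 7.15 to 59.1), counted as unchanged at 14.3% (RMRP left out) and 37.5% (threshold 50). The tally thus partly reflects interval width. Summed scores of the 4 RNAs with regions stayed within 1.5 times under the overlap and edge settings run and with scores capped at 100. The numbers of regions on these RNAs stayed within it under the overlap, score and edge settings. RN7SL1 had 0 regions under the overlap and edge settings. At scores of 3 or more, RPPH1 lost its region with a score of 2, which left 3 of 4 and a covered share of 73.9%. The high-score share was 62.5% on these RNAs and 11.0% in the rest of the list with a threshold of 10. In the rest it was 0.944% with a threshold of 50 and 0.520% among regions of score 3 or more. In the first of 3 equal parts from the 5′ end lay 33.2% of the covered nucleotides of RMRP and 31.2% of those of RPPH1. The single region of RMRP spans the whole RNA, which fixes its value. By 1-nt position, of which RMRP has 1 and RPPH1 has 4, the share was 100% for RMRP and 25% for RPPH1. Weighted by score it was 68.9% for RPPH1. Within 10000 nt, opposite-strand regions numbered 21 for RN7SK, 8 for RN7SL1 and 3 for RPPH1, and same-strand regions 9 for RMRP. Tiles of 200 and 500 nt reaching the summed score were 8.03% and 11.8% for RN7SK, 36.1% and 40.2% for RN7SL2, 0.315% and 0.590% for RMRP, and 0.0973% and 0.162% for RPPH1. No paired analysis was possible, and AGO1 against AGO2 was not run, because each region has a single pooled value of unknown depth.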
